A study of Mus musculus with 3 samples.

Results

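Semaphorins are a family of secreted and membrane-linked ligands, and plexins and neuropilins are their receptors. The genes described here are the 31 of 55573 genes in the deposited table whose name marks them as a semaphorin of class 3 to 7, a plexin or a neuropilin. They comprise 20 ligands and 11 receptors (9 plexins and 2 neuropilins), chosen by name alone. UMI-RNAseq, in which a random tag on each molecule allows PCR copies to be removed, was carried out on 3 libraries of NIH3T3 cells, an established line of mouse embryonic fibroblasts. The labels give no treatment; the cells were cultured in DMEM with fetal bovine serum and were detached with trypsin before RNA extraction. All 3 libraries share this 1 condition, so the values describe levels and not a response. Whether the libraries came from separate cultures is not given in the sources used here, so an SD over them may hold technical spread only.

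Semaphorins were first known for steering growing axons, and they also act on cell shape, adhesion and vessel growth in many tissues. Binding of a semaphorin to the Sema domain of a plexin activates the plexin's cytoplasmic GAP domain, which lowers the activity of small GTPases of the Ras and Rap family and loosens integrin adhesion. Most secreted class 3 semaphorins do not bind plexins alone and need a neuropilin as co-receptor, whereas semaphorins of classes 4 to 7 are linked to the membrane and bind plexins directly. Fibroblasts make several semaphorins and carry receptors for them.

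Levels are given as FPKM, in which the fragments of a gene are divided by its length in kilobases and scaled to 1000000 fragments counted per library. The libraries held between 13959723 and 14423209 fragments, so that 3 fragments in 1 library stood for at most 0.169 FPKM for any of these genes. An FPKM of at least 1 in every library was reached by 22 of the 31 genes (71.0%). The same limit was reached by 22.2% of all genes listed and by 48.5% of protein-coding genes, and all 31 genes are annotated as protein coding. The median of the mean FPKM was 6.49 over the 31 genes and 0.804 over protein-coding genes. As a check of the cell line, 11 of 12 fibroblast markers reached the limit, led by Fn1 with a mean of 4377 FPKM, while Fap was lowest at 0.0378. The extraction text of the labels mentions retina, but 0 of 8 retina markers reached the limit, and their summed FPKM lay between 0.562 and 1.31 per library. Endothelial, neuronal, haematopoietic and epithelial lists each had 1 of 8 markers at the limit, namely Cdh5, Syn1, Lyz2 and Krt14 with means of 1.35, 7.50, 2.54 and 8.39 FPKM. Their lowest members, such as Sox17, Stmn2, Itgam and Krt5, were listed at 0. Summed FPKM per library ranged from 1.48 to 1.996 for the endothelial, 7.31 to 8.54 for the neuronal, 2.57 to 3.18 for the haematopoietic and 8.73 to 9.07 for the epithelial list. In bulk RNA, fewer cells of a type and less RNA per cell cannot be told apart, so each level is a mean over all cells of a culture.

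**Figure D1:**
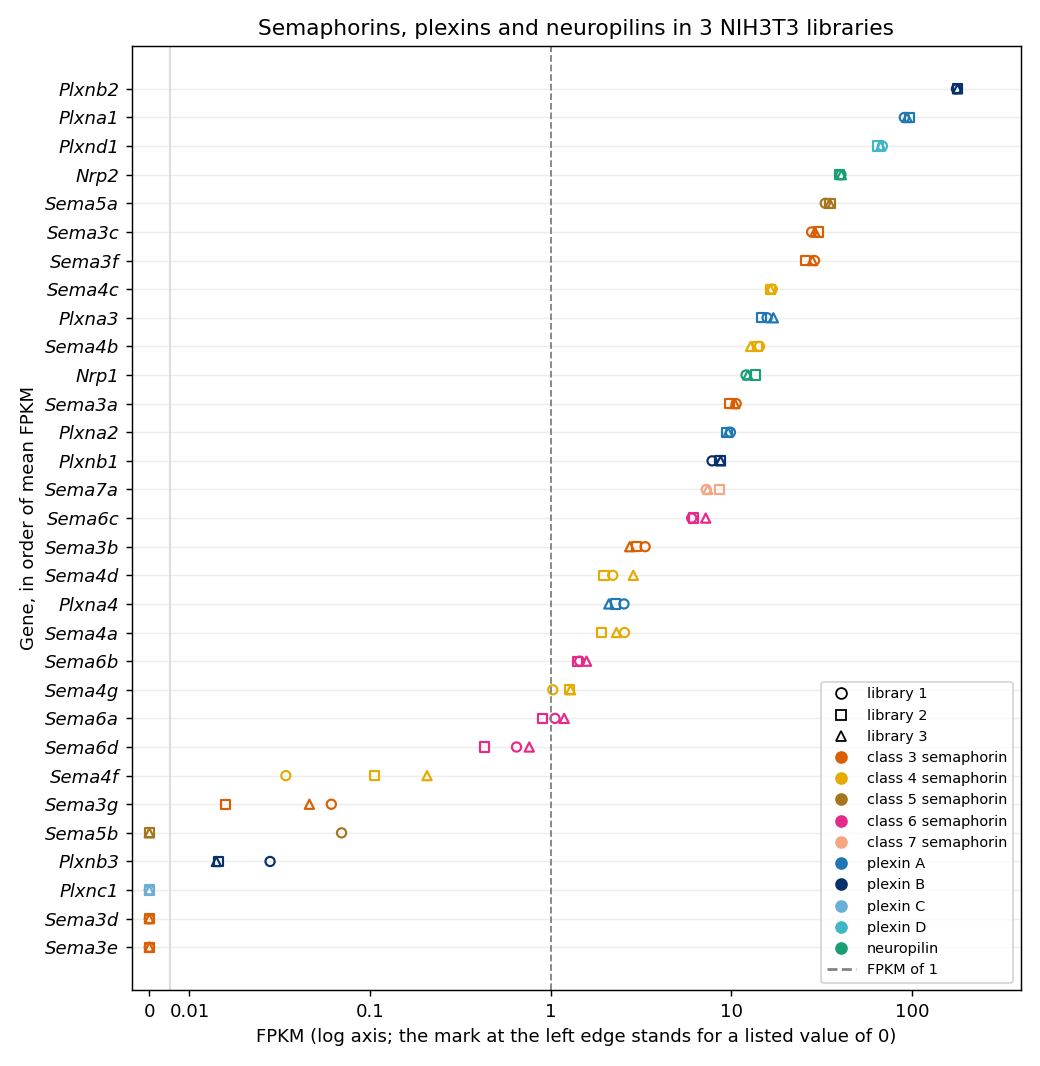
FPKM (log axis) of the 31 genes in each of the 3 libraries, in order of mean FPKM and coloured by class; circles, squares and triangles are libraries 1, 2 and 3, and marks at the left edge stand for a listed value of 0. Plxnb2 lies at the top near 178 FPKM, 22 genes lie at or above 1 FPKM in every library, and Plxnc1, Sema3d and Sema3e lie at 0 in all of them.

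Plxnb2, Plxna1 and Plxnd1 had the highest deposited levels of the family. Plxnb2, a receptor for class 4 semaphorins that acts in neural and epithelial development, had 176.8 FPKM in library 1, 179.0 in library 2 and 179.1 in library 3. Its mean of 178.3 ± 1.32 FPKM (SD, n = 3) ranked 564 among genes with a mean of at least 1 FPKM and lay above 97.6% of protein-coding genes. Plxnb2 alone made up 41.6% ± 0.0809 (SD, n = 3) of the summed FPKM of the 11 receptors. On GRCm38 the gene occupies positions 89155549 to 89180788 of chromosome 15 (minus strand).

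Plxna1, a signalling partner of neuropilins in class 3 responses and a receptor of Sema6d, had 90.95, 96.86 and 94.19 FPKM in libraries 1, 2 and 3. Plxnd1, known for vessel patterning as a receptor of Sema3e, had 68.76, 65.04 and 67.33 FPKM. The values of Plxnb2, Plxna1 and Plxnd1 did not overlap between genes in any library, so their order was larger than the spread between libraries. Plxna1 is located on chromosome 6 from 89316314 to 89362620 and Plxnd1 on the same chromosome from 115954811 to 115995005, both on the minus strand.

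The remaining plexins were lower. Plxna3, a partner of Nrp2 in Sema3f responses, had 15.82, 14.73 and 17.13 FPKM. Plxna2, a receptor of Sema6a, had 9.90, 9.48 and 9.62 FPKM, and Plxnb1, the receptor of Sema4d, had 7.84, 8.68 and 8.74 FPKM. Plxna4, a class A plexin that is prominent in neurons, had 2.55, 2.28 and 2.10 FPKM, close to the levels of Sema4d and Sema4a, with which its libraries overlapped. Each of these genes was thus present in every library, with all 4 class A plexins at or above the limit.

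Plxnb3 and Plxnc1 were at the lower end. Plxnb3, a receptor of Sema5a, rested on 2, 1 and 1 fragments in the 3 libraries, or 0.0189 FPKM over all of them with an exact Poisson 95% interval of 0.00515 to 0.0484. Plxnc1, the plexin receptor of Sema7a, had 0 fragments in each library, which allows up to 0.110 FPKM at 3 fragments. Such intervals and limits cover counting error only.

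Nrp2 exceeded Nrp1 in every library. Nrp2, the co-receptor preferred by Sema3f, had 40.55, 39.75 and 40.76 FPKM, with a mean of 40.4 ± 0.532 (SD, n = 3). Nrp1, which binds Sema3a and also VEGF, had 12.09, 13.62 and 12.36 FPKM, with a mean of 12.7 ± 0.820. The ratio of Nrp2 to Nrp1 was 3.19 ± 0.238 (SD, n = 3) and ranged from 2.92 to 3.36. As the log2 ratio of Nrp1 to Nrp2 this was -1.67 ± 0.11. An exact sign-flip permutation test on the libraries (two-sided) returned p = 0.25, also after Benjamini-Hochberg adjustment over the 4 ratios of this kind, and n = 3 permits nothing smaller. The neuropilins together reached 53.0 ± 0.373 FPKM (SD, n = 3), against 375.7 ± 2.84 for the 9 plexins, a ratio of plexins to neuropilins of 7.08. With the longest annotated isoform as gene length the sums were 45.2 and 117.4 FPKM and the ratio was 2.59. Nrp2 lies on the plus strand of chromosome 1 from 62703285 to 62818695, and Nrp1 on the plus strand of chromosome 8 from 128358604 to 128503363.

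Summed over the family, class B plexins were more abundant than class A plexins, but this rested on Plxnb2. The sum was 186.8 ± 1.82 FPKM for 3 class B genes and 121.9 ± 2.30 for 4 class A genes (SD, n = 3), a ratio of B to A of 1.53 ± 0.0144. Plxnb2 held 95.5% ± 0.223 of the class B sum and Plxna1 held 77.1% ± 1.22 of the class A sum. On the log2 scale the ratio of class A to class B was -0.62 ± 0.01, with p = 0.25 in the same exact permutation test. Without Plxnb2 and Plxna1, the remaining class A plexins exceeded the remaining class B plexins 3.31-fold ± 0.274 (SD, n = 3), a log2 ratio of 1.72.

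**Figure D2:**
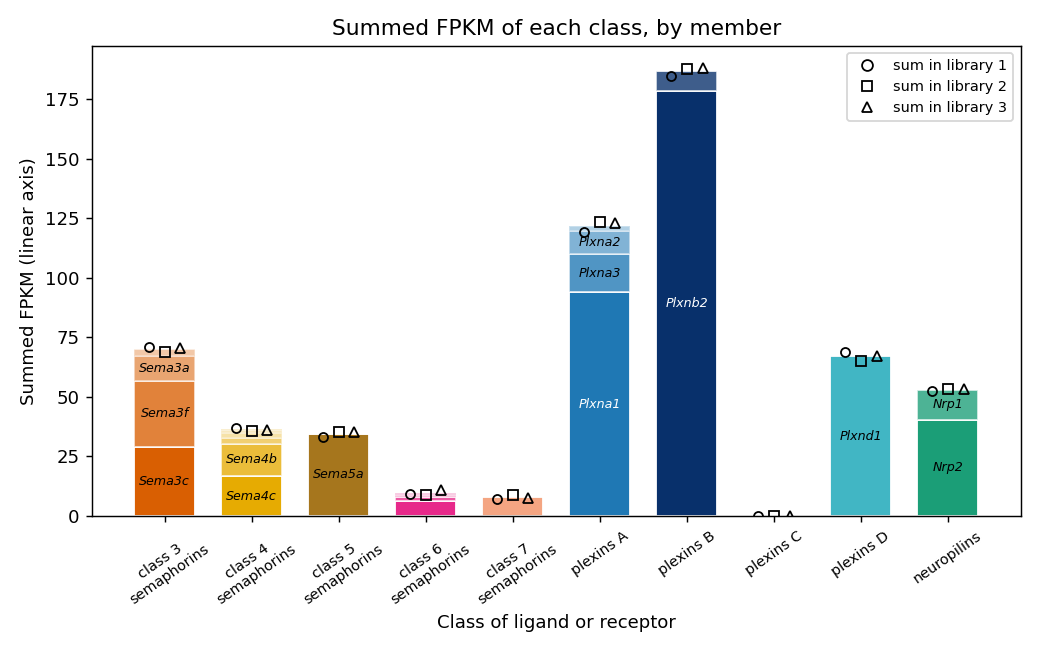
Summed FPKM (linear axis) of each class of ligand or receptor, with bars stacked by the mean of each member and open symbols for the sum in libraries 1, 2 and 3. Class B plexins reach 186.8 FPKM, almost entirely Plxnb2, and class 3 semaphorins, at 70.1 FPKM, are the tallest ligand class.

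Among ligands, 13 of 20 (65%) reached the limit in every library, compared with 9 of 11 receptors (81.8%) and 48.5% of protein-coding genes. The summed FPKM of all semaphorins was 157.7, 157.6 and 159.8 in libraries 1, 2 and 3, whereas that of all receptors was 425.3, 429.5 and 431.4. Receptors therefore exceeded ligands by a factor of 2.71 ± 0.0154 (SD, n = 3). The log2 ratio of ligands to receptors was -1.44 ± 0.01 with p = 0.25 (exact sign-flip permutation test). Median levels were 2.31 FPKM over the ligands and 12.7 FPKM over the receptors.

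The secreted class 3 semaphorins were split between 4 genes that were present and 3 that were not detected or nearly so. Sema3c, which acts through both neuropilins and Plxnd1 and is needed for the cardiac outflow tract, had 27.89, 30.32 and 29.08 FPKM. Sema3f, a repellent that acts through Nrp2, had 28.94, 25.79 and 28.13 FPKM. The libraries of Sema3c and Sema3f overlapped, so no order was seen between them. Sema3a, the repellent of sensory axons that acts through Nrp1, followed with 10.66, 9.82 and 10.47 FPKM. Sema3b, a relative known as a candidate tumour suppressor, had 3.34, 2.98 and 2.74 FPKM.

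Sema3g, Sema3d and Sema3e stood at the other end of class 3. Sema3g, which is known from vessels, rested on 4, 1 and 3 fragments, or 0.0413 FPKM in all with an exact Poisson 95% interval of 0.0178 to 0.0813. Sema3d and Sema3e each had 0 fragments in every library, which allows up to 0.0650 FPKM for Sema3d and 0.0463 for Sema3e at 3 fragments. Sema3a, Sema3c, Sema3d and Sema3e all lie on chromosome 5 between 12383385 and 17730268 and yet differed in this way. Within that stretch, Sema3d starts at 12383385, Sema3a at 13125414, Sema3e at 14025276 and Sema3c at 17574281, all on the plus strand.

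Of the membrane-linked semaphorins, Sema5a was the most abundant, and on the deposited lengths it was the highest ligand overall. With the longest isoforms as lengths, Sema3c stood above it, with means of 13.8 and 12.7 FPKM. Sema5a, which carries thrombospondin repeats and can attract or repel axons, had 33.19, 35.25 and 35.13 FPKM and a mean of 34.5 ± 1.16 (SD, n = 3). Its only class 5 relative, Sema5b, had 2 fragments in library 1 and 0 in libraries 2 and 3. Sema5a held 39.1% ± 0.782 of the summed FPKM of classes 4 to 7.

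Class 4 had 5 of 6 genes at or above the limit. Sema4c, a ligand of Plxnb2, had 16.89, 16.59 and 16.51 FPKM, the smallest relative spread among the ligands, with a coefficient of variation of 1.19% against 4.40% from counting alone. Sema4b, a close relative with a less settled receptor, had 14.36, 14.02 and 12.82 FPKM. Sema4d, the ligand of Plxnb1 that is also known as CD100 on lymphocytes, had 2.21, 1.98 and 2.87 FPKM. Sema4a, which acts in the immune system and the retina, had 2.57, 1.91 and 2.32 FPKM. Sema4g, another ligand of Plxnb2, had 1.03, 1.27 and 1.29 FPKM. Sema4f had 1, 3 and 6 fragments, or 0.116 FPKM over all libraries with an exact Poisson 95% interval of 0.0554 to 0.213. Class 4 was therefore carried by Sema4c and Sema4b, and each of the other genes had a mean at or below the 2.35 FPKM of Sema4d.

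Class 6 semaphorins, which bind class A plexins and can signal in reverse through their own tails, were low. Sema6c was the highest of them with 6.04, 6.18 and 7.23 FPKM. Sema6b had 1.45, 1.41 and 1.58 FPKM. Sema6a straddled the limit with 1.06, 0.904 and 1.19 FPKM, and Sema6d lay below it with 0.648, 0.430 and 0.762 FPKM. Sema7a, the single semaphorin held by a GPI anchor, had 7.28, 8.64 and 7.41 FPKM.

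In sum, the membrane-linked classes exceeded class 3. The summed FPKM was 70.1 ± 1.03 for the 7 genes of class 3 and 88.3 ± 1.30 for the 13 genes of classes 4 to 7 (SD, n = 3). The membrane-linked sum was higher by a factor of 1.26 ± 0.0317, and higher in 3 of 3 libraries. The log2 ratio of class 3 to the others was -0.33 ± 0.04, with p = 0.25 by the exact permutation test. Sema5a alone, at 34.5 FPKM, was larger than the difference between the 2 sums, which also cover unequal numbers of genes. Without the highest gene of each sum, Sema3c and Sema5a, the log2 ratio was -0.39.

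In the order of mean FPKM, 13 of the 22 neighbouring pairs with both means at or above 1 did not overlap between libraries, and 9 did. How far neighbours lie apart depends on how many genes are ranked, and no such count was made over all genes. The count is therefore not a trait of this family. The pairs that overlapped were Sema3c and Sema3f, Sema4c and Plxna3, Sema4b and Nrp1, Sema3a and Plxna2, Plxnb1 and Sema7a, Sema3b and Sema4d, Sema4d and Plxna4, Plxna4 and Sema4a, and Sema4g and Sema6a. No order is therefore given within these pairs. The differences between libraries were also set against counting error, by a chi-square of the fragments. Of the 24 genes with at least 10 fragments in every library, 1 exceeded the 5% limit, namely Plxna1. Of the 13147 genes of the series with that many fragments, 9.32% did so. The median of this chi-square relative to its value under counting error alone was nevertheless higher in the 24 genes, at 2.22, than in the 13147 genes, at 1.12. Plxna1 had 3736, 3851 and 3838 fragments and a coefficient of variation of 3.15%, against 1.62% from counting alone. Its annotation overlaps the antisense gene Gm26811 over 970 exonic bases, but Gm26811 reached only 0.363 FPKM, and a part of that overlap in the spread was not tested. Whether strand was used in counting is not given in the sources used here.

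Ligands were next set beside their known receptors, as 19 pairs taken from textbook knowledge. Both partners reached 1 FPKM in every library in 13 pairs, only the receptor in 4 and only the ligand in 2. The pairs with both partners included Sema3f with Nrp2 (27.6 and 40.4 FPKM), Sema3c with Plxnd1 (29.1 and 67.0 FPKM), Sema3a with Nrp1 (10.3 and 12.7 FPKM), Sema4c with Plxnb2 (16.7 and 178.3 FPKM) and Sema4d with Plxnb1 (2.35 and 8.42 FPKM). Over the 13 pairs the receptor had the higher mean in 10 and the ligand in 3, namely Sema3c with Nrp1 (29.1 and 12.7 FPKM), Sema3f with Plxna3 (27.6 and 15.9 FPKM) and Sema3a with Plxna4 (10.3 and 2.31 FPKM). Genes recur among the pairs, so these are not separate results. Plxnb2 is the receptor in those with Sema4a, Sema4c, Sema4d and Sema4g. With the longest isoform as length, Sema4a, Sema4d and Sema4g fell below 1 FPKM in at least 1 library, and fewer pairs then had both partners at the limit. Taken singly, 13 of 20 ligands and 9 of 11 receptors reached the limit, against 48.5% of protein-coding genes. The RNA levels do not show whether the proteins meet at the cell surface.

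Other pairs were one-sided. Plxnd1 was abundant while Sema3e, its direct ligand, had 0 fragments, and with Sema3e set to 3 fragments per library Plxnd1 was at least 1404-fold higher on the deposited lengths and at least 541.7-fold higher with the longest isoforms as lengths. Sema7a was present while Plxnc1 had 0 fragments, and with Plxnc1 set to 3 fragments Sema7a was at least 68.1-fold higher on the deposited lengths and at least 144.0-fold higher with the longest isoforms. Sema7a also signals through β1 integrins, and Itgb1, the β1 chain, had a mean of 463.3 FPKM and Itga1 one of 3.87. Sema5a exceeded Plxnb3 by a factor of 1826, with limits of 713.1 and 6701 from the counting interval of the 4 Plxnb3 fragments. With the longest isoforms this factor was 840.5, with limits of 328.3 and 3085. Plxnb3 was the only receptor set beside Sema5a here, so the factor does not show that Sema5a lacks a partner in these cells. Plxna1 stood at 94.0 FPKM while its ligand Sema6d stood at 0.613. Sema6a, paired with Plxna2 (9.67 FPKM) and Plxna4 (2.31 FPKM), was a borderline case with a mean of 1.05 FPKM. Sema6a missed the limit only in library 2, at 0.904, and its pairs were counted as receptor only for that reason. Sema4g, which had 1.03 FPKM in library 1, was by contrast counted as present beside Plxnb2. The split of such pairs depends on the limit of 1 FPKM.

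**Figure D3:**
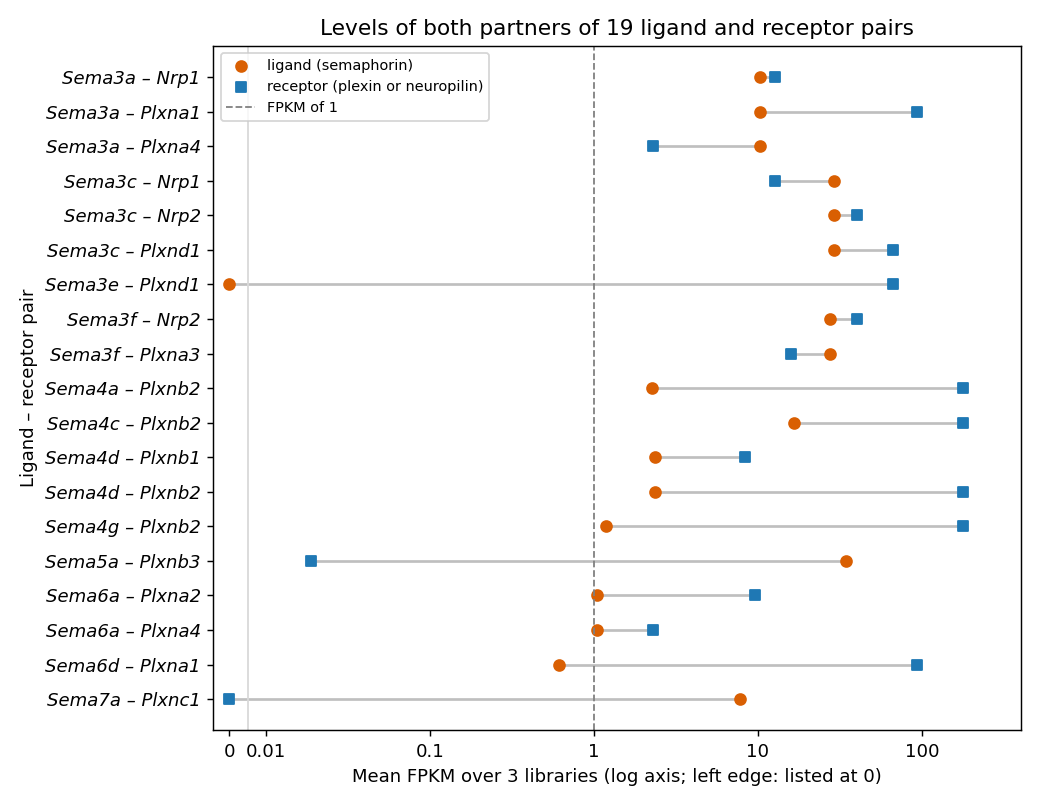
Mean FPKM over 3 libraries (log axis) of the ligand (circle) and the receptor (square) in 19 ligand and receptor pairs, joined by a line, with values listed at 0 at the left edge. The longest lines belong to Sema3e with Plxnd1, Sema5a with Plxnb3 and Sema7a with Plxnc1, in which 1 partner is at or near 0.

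The promoter sequences of 4 of these genes are shown because they set the highest plexin beside both partners of Sema3e and Plxnd1 and the undetected Plxnc1. Each is the 250 bases just before a RefSeq transcript start on GRCm38.p6, read 5′ to 3′ on the strand of the gene, with the motif CG, which reads the same on both strands, in capitals. The windows are chr15:89180789-89181038 (minus strand) for Plxnb2, chr6:115995006-115995255 (minus) for Plxnd1, chr10:94944846-94945095 (minus) for Plxnc1 and chr5:14025026-14025275 (plus) for Sema3e.
Plxnb2: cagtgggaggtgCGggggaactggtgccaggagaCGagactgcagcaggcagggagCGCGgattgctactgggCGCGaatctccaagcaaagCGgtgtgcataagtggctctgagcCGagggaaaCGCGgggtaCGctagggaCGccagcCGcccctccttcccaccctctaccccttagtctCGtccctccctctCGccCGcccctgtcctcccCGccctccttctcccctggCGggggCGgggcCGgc
Plxnd1: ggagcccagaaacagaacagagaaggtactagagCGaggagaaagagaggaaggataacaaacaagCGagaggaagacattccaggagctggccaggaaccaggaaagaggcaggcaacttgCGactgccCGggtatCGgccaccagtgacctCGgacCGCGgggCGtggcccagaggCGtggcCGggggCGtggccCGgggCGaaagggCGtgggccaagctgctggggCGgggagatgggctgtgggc
Plxnc1: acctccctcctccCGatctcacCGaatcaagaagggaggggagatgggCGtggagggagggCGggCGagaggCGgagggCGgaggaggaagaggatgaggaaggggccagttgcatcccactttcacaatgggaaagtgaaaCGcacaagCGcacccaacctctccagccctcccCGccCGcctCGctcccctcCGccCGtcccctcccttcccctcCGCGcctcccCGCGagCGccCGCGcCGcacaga
Sema3e: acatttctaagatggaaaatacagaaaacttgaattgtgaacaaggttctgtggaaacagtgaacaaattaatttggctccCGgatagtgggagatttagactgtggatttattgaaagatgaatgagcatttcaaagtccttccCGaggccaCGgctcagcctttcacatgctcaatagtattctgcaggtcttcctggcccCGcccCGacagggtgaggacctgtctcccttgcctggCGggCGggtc
These windows hold 20 CpG for Plxnb2, 16 for Plxnd1, 22 for Plxnc1 and 7 for Sema3e. Plxnc1, with 0 fragments, thus had a window as rich in CpG as that of Plxnb2. A second window of Plxnb2, before another transcript start, holds 13.

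Promoter windows were at hand for 26 of the 31 genes, and for genes with several starts the window with the most CpG was used. The median was 17.5 CpG over the 18 genes that reached 1 FPKM in every library, with a range of 2 to 39, and 7.5 over the 8 genes that did not, with a range of 3 to 22. For protein-coding genes the medians were 18 and 4. At least 20 CpG were found in 8 of the 18 (44.4%) and in 1 of the 8 (12.5%), against 42.2% and 10.7% of protein-coding genes on either side of the limit. The exception among the 8 is Plxnc1. At the other extreme, Sema3a and Sema4d had at most 2 CpG in a window, with 10.3 and 2.35 FPKM, while Sema3c, the richest, had 39. For Sema3a and Sema4d the windows lie inside the gene and not at its annotated start. The window of Sema3a begins at 13396534, whereas the gene starts at 13125414. Windows of other genes also lie inside the gene. That of Sema3c begins at 17574566, whereas the gene starts at 17574281. Whether these windows are promoters used in the cells was not tested. The bases just after the start occurred in a transcript of the gene for 30 of 37 windows. The shares in this family were near those of other protein-coding genes. No windows are described for Plxna1, Plxna4, Sema3b, Sema3f and Sema6a.

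The gene length behind each FPKM had a large part in the order. The deposited values divide by the mean length of all annotated isoforms, short non-coding ones included, and the longest isoform exceeded this length by a median factor of 2.04 over the 31 genes, compared with 1.72 over 12904 genes with a mean of at least 1 FPKM. The factor was 3.03 for Plxnb2, 3.17 for Plxna1, 3.83 for Plxnd1 and 4.70 for Plxnb1, but only 1.19 for Nrp2 and 1.13 for Nrp1. Of the 8 annotated isoforms of Plxnb2, which span 426 to 6497 nt, 2 are annotated as protein coding. With the longest isoform as the length, Plxnb2 stayed first with 58.9 ± 0.437 FPKM (SD, n = 3), but Nrp2 moved to the second place with 34.0 ± 0.449 and Plxna1 to the third with 29.6 ± 0.933. The 3 values of Nrp2 then lay between 33.5 and 34.4 and those of Plxna1 between 28.7 and 30.5, without overlap. Sema3c then stood above Sema5a (13.8 ± 0.579 and 12.7 ± 0.425 FPKM), with no value of Sema3c below the highest of Sema5a, 12.9. The factor between receptors and ligands became 2.18 ± 0.0115. Which isoforms these cells make cannot be read from values per gene.

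**Figure D4:**
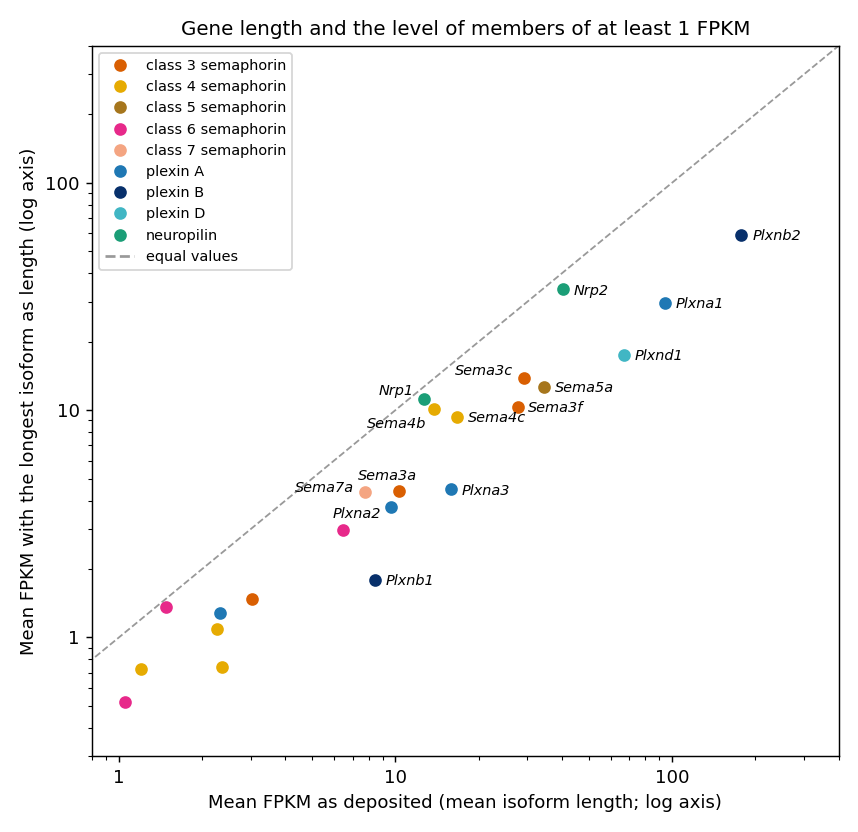
Mean FPKM of the 23 genes with a mean of at least 1 FPKM, as deposited (horizontal, log axis) and with the longest annotated isoform as gene length (vertical, log axis), with a dashed line for equal values. Plxnb1, Plxnd1 and Plxna3 lie farthest below the line, and Nrp1, Nrp2 and Sema6b lie closest to it.

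Of 50 other genes of the pathway, 38 (76%) reached 1 FPKM in every library, against the 48.5% of protein-coding genes given above. These genes were chosen with earlier results of these data known, so this share and those of the groups within the list do not measure enrichment. Among 12 partners at the membrane, 6 (50%) did so, close to the share of protein-coding genes in general. Itgb1 was highest, Met, a receptor tyrosine kinase that associates with class B plexins, had 29.7 FPKM, and Erbb2, another such kinase, had 23.4 FPKM. Kdr, the main VEGF receptor of endothelium, had 0.0321 FPKM, and Timd2 and Chl1 were listed at 0. Of the other neuropilin ligands, 3 of 4 reached the limit, with Vegfa highest at 316.6 FPKM and Pgf lowest at 0.371. On the deposited scale Vegfa was above every semaphorin.

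Of the effectors listed for the cytoplasmic tails of the receptors, direct or downstream, 27 of 30 (90%) were at the limit. The share over protein-coding genes was 48.5%, but the share here depends on which genes were listed. The median over the 30 genes was 34.4 FPKM. Dpysl3, a CRMP phosphoprotein of the semaphorin response, was highest with 316.9, 315.3 and 310.9 FPKM. Its relative Dpysl2 had 11.9 FPKM, whereas the relatives Dpysl5, Crmp1 and Dpysl4 were the 3 below the limit, Dpysl4 at 0. Arhgef12 and Arhgef11, the RhoA exchange factors that bind the tails of class B plexins, had 38.2 and 19.7 FPKM. Farp1 and Farp2, exchange factors linked to class A plexins, had 155.1 and 7.36 FPKM. Mical2 was the highest of the MICAL oxidases, which disassemble actin filaments, with 64.8 FPKM. Gipc1, which binds the end of Nrp1, had 73.2 FPKM. The small GTPases Rhoa, Rap1b, Rras and Rac1 had 201.4, 139.8, 136.1 and 135.4 FPKM. Of 4 convertases, Furin, the protease that trims class 3 semaphorins, had 71.9 FPKM and Pcsk7 15.1, whereas Pcsk6 was listed at 0 and Pcsk5 had 0.00512.

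**Figure D5:**
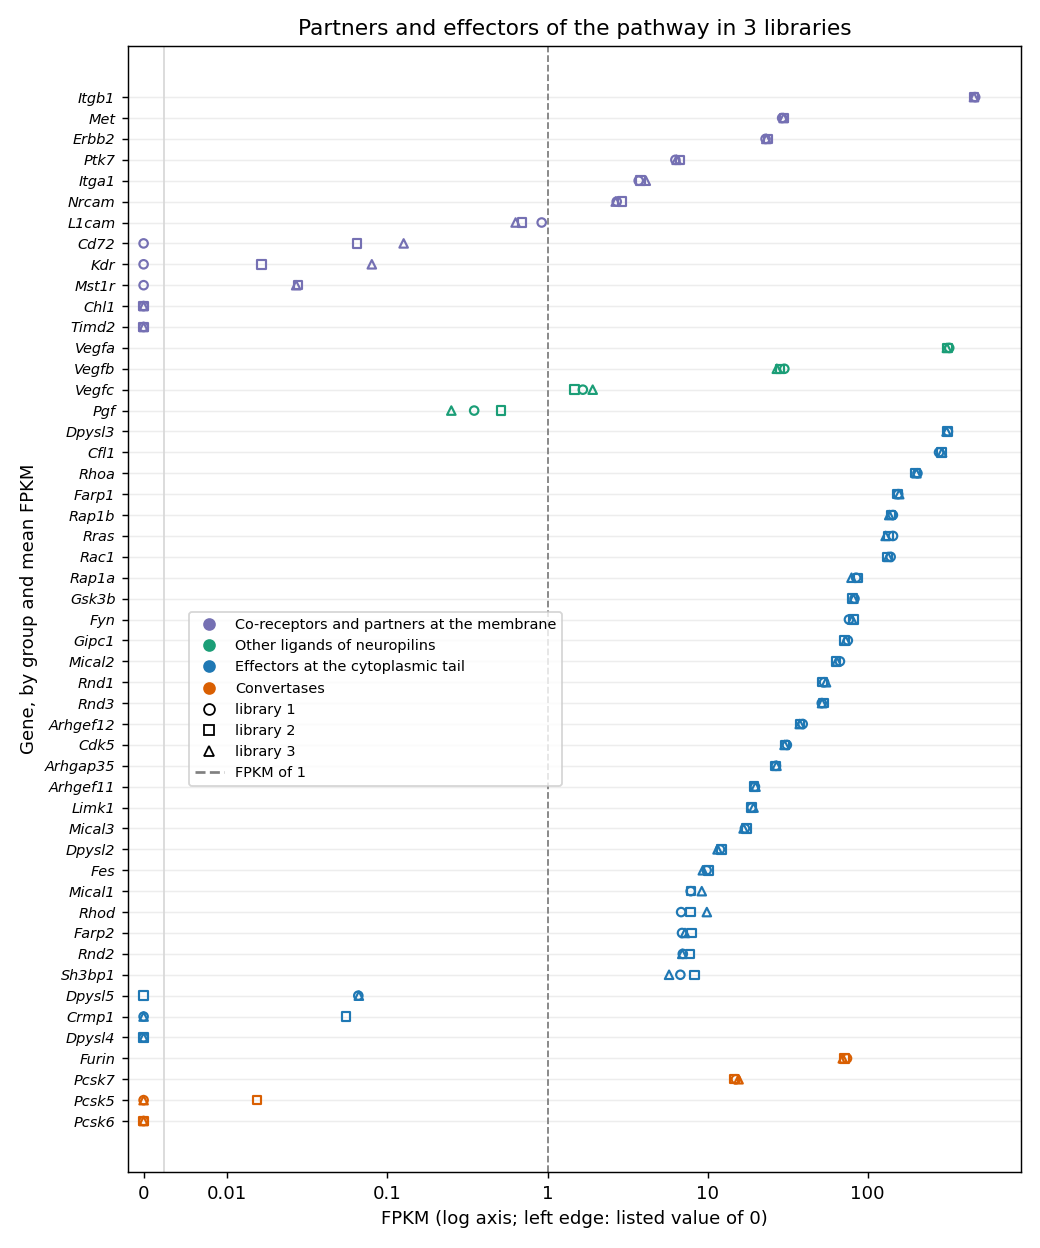
FPKM (log axis) of 50 partner and effector genes of the pathway in libraries 1, 2 and 3 (circle, square, triangle), grouped by role and ordered by mean FPKM, with values listed at 0 at the left edge. Among effectors, Dpysl3 lies near 314 FPKM and 3 genes, Dpysl5, Crmp1 and Dpysl4, lie below 1.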

How the data were processed

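UMI-RNAseq was measured in 3 libraries of NIH3T3 cells. Per the study's methods and the submitters' processing notes, the tags were read with UMI-tools 1.0.0, mapping was done with HISAT2 2.0.4, reads sharing a location and a UMI were collapsed, and HTSeq 0.6.1 counted what remained per gene. The authors deposited FPKM per gene and library, unpooled. The build and annotation of the counting are not given in the sources used here. Both deposited tables hold the same values, and 0 value columns were left unused.

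Genes were selected by symbol with Python 3.11.15, numpy 2.4.6, pandas 2.3.3 and scipy 1.17.1, and figures used matplotlib 3.10.9. Positions and isoforms came from GENCODE M21 (GRCm38), which lists 55480 of the gene IDs, and promoter windows from RefSeq. FPKM times mean isoform length times library total gave fragments within 0.01 of a whole number for over 99.1% of genes above 0, and the step was tested on simulated data. As FPKM is no count, count models were limited to these recovered fragments, as exact Poisson intervals and the chi-square against counting error. Ratios were taken within libraries, with an exact sign-flip permutation test. Shared sequence was searched as 75-nt words, and at most 5.28% of the words of any member, those of Sema4c, occurred in another gene.

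All 31 genes are named. Of the other lists, the highest, the lowest and known binding partners of a member are named. Dpysl2, Dpysl3, Dpysl4, Dpysl5, Crmp1, Mical2, Pgf, Pcsk5, Pcsk6, Pcsk7 and the small GTPases fall outside that rule for the pathway list as a whole and were named after their values were seen. The rule on gene names that set the members uses no values. That rule, the lists, the pairs and the alternatives were chosen with earlier results of these data known. Alternatives were each replicate left out, TPM, median-of-ratios scaling, other limits, pseudocounts, lengths and summaries. The longest isoform for the counts and order of genes and for folds between partners and between plexins and neuropilins was added after the data were seen.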

Additional observations from a re-analysis of the deposited data

How the results depend on the processing

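Detected genes numbered between 18 and 27 under other limits, TPM or with a replicate left out, and 19 with the longest isoform. Many mean levels, but not all, moved by more than the SD under TPM, which multiplies each library by 1.43 to 1.46, and with the longest isoform. With 3 libraries, leaving one out cannot move a mean by more than the SD, and TPM and size factors cancel in a ratio within a library, so neither bears on stability. The ratio of class A to class B plexins reversed once, to a log2 value of 1.72 without the highest gene of each sum, Plxna1 and Plxnb2. That ratio was also smaller, at -0.16, when fragments were not divided by length. In that setting the log2 ratio of Nrp1 to Nrp2 was -2.49 and that of class 3 to membrane-linked semaphorins -0.89. With the longest isoform, the folds of Plxnd1 over Sema3e, Sema5a over Plxnb3 and plexins over neuropilins fell and that of Sema7a over Plxnc1 rose, each by over 1.5 times. No p crossed 0.05, which 3 libraries cannot do. No comparison between groups, paired or not, was possible because the series holds a single group. Depth limits the genes with 10 or fewer fragments in all, which are Sema4f, Sema3g, Sema5b, Plxnb3, Plxnc1, Sema3d and Sema3e.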
